A study of Mus musculus with 9 samples.

Results

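Integrins are receptors by which cells hold on to the extracellular matrix and to other cells, and laminins are the matrix proteins that several of them bind. Messenger RNA for the subunits of both families was compared in 3 mouse stromal cell lines. The genes were taken by symbol: every probe set whose platform annotation gave a single symbol of an integrin alpha or beta subunit (Itga or Itgb) or of a laminin chain (Lama, Lamb or Lamc) was taken, whatever its signal. This gave 64 probe sets for 35 genes, out of 29131 probe sets with 1 symbol for 15964 genes. Of these, 25 genes with 44 probe sets encode integrin subunits and 10 genes with 20 probe sets encode laminin chains. Itgb6 had no probe set with its symbol alone and was not analysed here.

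An integrin is a heterodimer of 1 alpha and 1 beta subunit, and the alpha subunit largely sets which ligand is bound: collagens, laminins, proteins with an RGD sequence such as fibronectin and vitronectin, or counter-receptors on other cells. A laminin is a trimer of 1 alpha, 1 beta and 1 gamma chain that assembles into the basement membrane together with type IV collagen, nidogens and perlecan. In hematopoietic tissue, stromal cells supply matrix and cell-surface ligands, and blood progenitors adhere to them through their own integrins.

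AGM-s3-A9 and AGM-s3-A7 are stromal lines from the aorta-gonad-mesonephros (AGM) region, where the first hematopoietic stem cells of the embryo appear. The labels describe AGM-s3-A9 as supportive of hematopoiesis and AGM-s3-A7 as non-supportive. OP9 is a supportive line from newborn mouse calvaria, the bone of the skull vault. Total RNA of each line (6 ug, labelled as biotinylated cRNA) was hybridised to 1 array each of the 3 types of a mouse Affymetrix set (MG-U74A, then MG-U74B, then MG-U74C), 9 arrays in all. No genotype or treatment is given, and each line is a single established line, so a difference between lines cannot be told apart from a difference between cultures or arrays. There are no replicates, so differences are given by their size and no p-value is attached to any of them.

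Intensities were quantile-normalized within an array type. A probe set was called measured in a line where its intensity exceeded a detection level of 49.0 (MG-U74A), 52.8 (MG-U74B) or 61.6 (MG-U74C), set from the median intensity or from 34 control probe sets without an expected target, whichever was higher. Where a gene lay above that level in only 1 of the 2 lines compared, its fold is a lower bound against the level and is written "at least". A gene was counted as higher or lower at 2-fold. Probe sets for the same gene on the same array type gave log2 ratios that spread with a robust SD of 0.30 to 0.32, or 1.23-fold to 1.25-fold. This is measurement error between probe sets read on the same arrays. It covers neither separate arrays nor separate cultures.

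The lines showed 6 to 9 of 10 stromal marker genes above the level, Col1a1, Col1a2, Col3a1, Pdgfra, Pdgfrb and Cxcl12 in all 3. Their summed intensity was 21752 for AGM-s3-A9, 21487 for AGM-s3-A7 and 14084 for OP9, and Dcn and Thy1 were below the level in OP9 alone. Of 12 hematopoietic and macrophage markers, Cd14 was above it in all 3 lines and Laptm5 in both AGM lines, while Ptprc, the pan-leukocyte marker, read 0.90 to 2.31. Of 8 endothelial markers only Eng, and of 7 epithelial markers only Cdh1 and Epcam, were above it. Smooth muscle markers differed: their summed intensity was 5413 for AGM-s3-A9, 5484 for AGM-s3-A7 and 1253 for OP9. A value below the level does not show that a gene is off, since Vim, a mesenchymal intermediate filament gene, read only 17.9 to 22.9. In RNA from whole cultures, fewer cells of a type and less RNA per cell cannot be told apart.

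Of the 35 genes, 16 had a probe set above the level in at least 1 line: 10 integrin subunits and 6 laminin chains. By line, 7 of the 25 integrin genes were measured for AGM-s3-A9, 10 for AGM-s3-A7 and 8 for OP9, or 28%, 40% and 32%. For the 10 laminin genes the counts were 6, 6 and 4, or 60%, 60% and 40%. Over all genes 50.3% to 50.7% were measured in a line. On MG-U74A the level was the median intensity itself, so this share depends on how the level was set. The controls alone would give 39.1 there, which Lama2 (43.5 for AGM-s3-A7) and Itgax (44.9 for AGM-s3-A9) exceed. The measured subunits were Itga1, Itga3, Itga5, Itga7, Itga8, Itga11, Itgav, Itgb1, Itgb5 and Itgb7, and the measured chains were Lama1, Lama4, Lama5, Lamb1, Lamb2 and Lamc1. Of these 16, 10 were above the level in all 3 lines, and Itga3, Itga5, Itga7, Itga8 and Itgb7 never reached 2 times the level, so their values lie close to background.

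Among collagen-binding alpha subunits, Itga11 was much lower in OP9 than in either AGM line. Itga11 encodes the alpha11 subunit, a receptor for fibrillar collagen on fibroblasts and other mesenchymal cells. Its intensity was 355 for AGM-s3-A9, 489 for AGM-s3-A7 and 69.8 for OP9, so the AGM lines were high and OP9 was low but still above the level. OP9 was 7.004-fold below AGM-s3-A7 (log2 ratio -2.81) and 5.09-fold below AGM-s3-A9 (-2.35). Only 0.55% and 0.90% of all measured genes had a lower ratio in those comparisons. AGM-s3-A9 was 1.38-fold below AGM-s3-A7 (-0.46), a gap far smaller than that to OP9. The gene rests on 1 probe set. In the intensities as deposited, without normalization, it read 285, 523 and 86.3 in the same order of lines. Other mesenchymal markers differed between OP9 and the AGM lines too. Of 6 smooth muscle markers, with the sums given above, 5 were above the level in AGM-s3-A9 and 4 in each other line. Acta2, Cnn1 and Tagln were over 2-fold lower in OP9 than either AGM line, while Myh11 read 71.0, 49.3 and 61.3 and Des was below the level throughout. Of 10 stromal markers, Col3a1, Dcn and Thy1 were over 2-fold lower in OP9 than either AGM line, and Dcn and Thy1 were below the level there. The others did not follow them. Col1a1, Col1a2, Pdgfra and Pdgfrb differed by less than 2-fold on the probe sets that represent them. Cxcl12 was highest in OP9, at 4213 for AGM-s3-A9, 2712 for AGM-s3-A7 and 4860 for OP9. Lum was above the level only in AGM-s3-A7, and Vim in no line. The part of these markers in the Itga11 result was not tested.

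Itga1, the alpha1 subunit that binds collagen IV and other collagens, differed little, with intensities of 155 for AGM-s3-A9, 122 for AGM-s3-A7 and 183 for OP9. The log2 ratio of OP9 to AGM-s3-A7 was 0.58, but the sign of each of its 3 differences changed under at least 1 other scaling of the arrays. Itga2 and Itga10, the other collagen-binding subunits, stayed below the level in every line. Itga2 reached 0.47 times the level at most and Itga10 0.26 times. Itga1 and Itga2 lie next to each other on chromosome 13.

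The laminin-binding alpha subunits were at or near background. Itga3, the alpha3 subunit of a laminin receptor best known from epithelia, read 47.8 for AGM-s3-A9, 50.7 for AGM-s3-A7 and 54.1 for OP9 against a level of 49.0. Itga6, the alpha6 subunit that pairs with beta1 or beta4, was at most 0.11 times the level on its 1 probe set. Itga7, the alpha7 subunit typical of muscle, read 56.3, 87.0 and 68.4 in the same order of lines. Its second probe set read 65.4, 50.4 and 34.4 and put AGM-s3-A9 above AGM-s3-A7 (log2 ratio 0.38), where the first put it below (-0.63). No direction is therefore given for Itga7.

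Of the alpha subunits of RGD-binding integrins, Itgav was far above the level and nearly equal in the 3 lines after normalization. It encodes alphaV, which pairs with several beta subunits, beta1 and beta5 among them, and binds vitronectin, fibronectin and latent TGF-beta. Its intensity was 1496 for AGM-s3-A9, 1493 for AGM-s3-A7 and 1394 for OP9. The log2 ratios of OP9 against both AGM lines were -0.10, within the spread between probe sets. As deposited it read 1987, 1315 and 1194, with log2 ratios of 0.60 between the AGM lines and -0.73 for OP9 to AGM-s3-A9. A second, dimmer probe set read 80.4, 112 and 91.7, with AGM-s3-A9 lower than AGM-s3-A7 (-0.47), and the other was never above the level.

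Itga5, the alpha5 subunit of the classical fibronectin receptor, was measured in both AGM lines and not in OP9. Its intensities were 74.97 for AGM-s3-A9, 75.8 for AGM-s3-A7 and 28.0 for OP9. OP9 was thus at least 1.55-fold below AGM-s3-A7 and at least 1.53-fold below AGM-s3-A9, under the 2-fold rule because the AGM values were close to the level. In the deposited intensities the bound against AGM-s3-A9 passed 2-fold (log2 ratio -1.06). Itga8, which binds nephronectin, read 61.3, 62.9 and 16.4 and was above the level only in AGM-s3-A7, by 1.02-fold. Its value for OP9 to AGM-s3-A7 depended on the level: it was -1.94 with the median of MG-U74C or no level and -1.01 with the 75th percentile, which on that array type (31.2) lies below the level used. Itga2b, the platelet subunit, was below the level in all 3 lines, at most 0.78 times.

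The alpha4, alpha9 and leukocyte alpha subunits were not measured. Itga4 and Itga9, whose integrins bind VCAM1, tenascin and other ligands, were below the level in all lines on 4 and 2 probe sets, the best of them at 0.26 and 0.48 times the level. The 5 leukocyte alpha genes, Itgad, Itgae, Itgal, Itgam and Itgax, were also below it, Itgax being the nearest at 0.92 times. Itgam, Itgax and Itgad are consecutive genes on chromosome 7. Ptprc and most other hematopoietic markers were below the level in the same arrays, as described above.

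**Figure D1:**
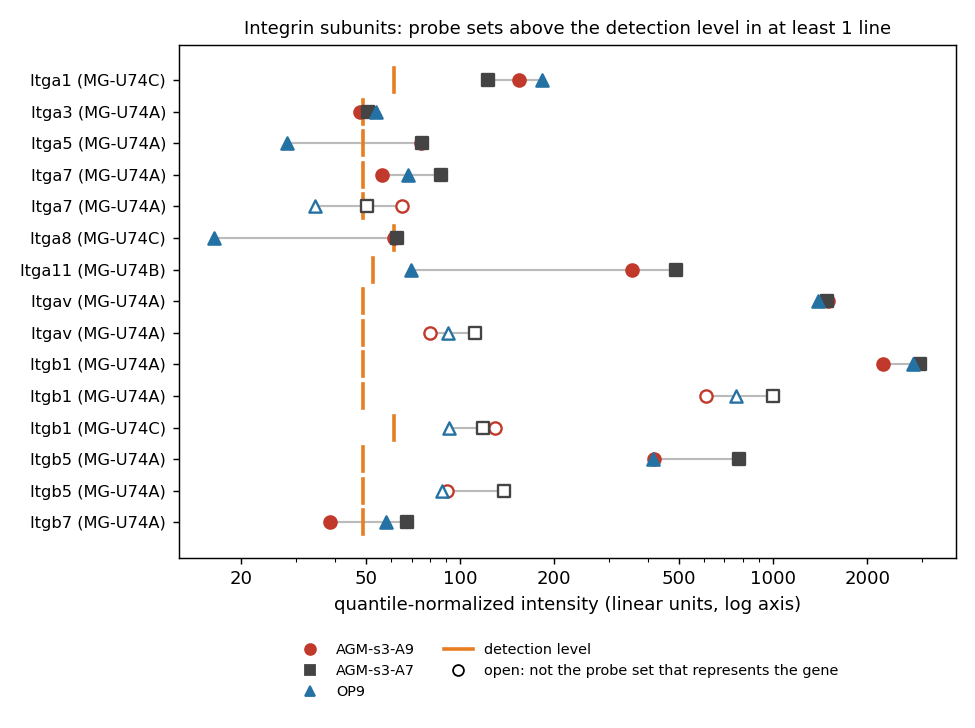
Quantile-normalized intensity (linear units on a log axis) of each integrin probe set above the detection level in at least 1 line, with 1 point per line and an orange bar at the level; filled points are the probe set that represents the gene. Itga11 is at 355 and 489 in the AGM lines and 69.8 in OP9, while Itgav lies between 1394 and 1496.

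Among beta subunits, Itgb1 was far above the level in each line. It encodes beta1, the partner of most collagen-, laminin- and fibronectin-binding alpha subunits. Its intensity was 2252 for AGM-s3-A9, 2955 for AGM-s3-A7 and 2797 for OP9. AGM-s3-A9 was 1.31-fold below AGM-s3-A7 (log2 ratio -0.39), and a further probe set on MG-U74A put the difference at -0.72 with intensities of 610.0, 1002 and 762. The last one, on MG-U74C, read 129, 118 and 92.3 and turned the sign to 0.13. The sign of the first also changed with the scaling in each of the 3 comparisons, so the lines were not separated for Itgb1.

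Itgb5, which encodes beta5, a partner of alphaV in a vitronectin receptor, was higher in AGM-s3-A7 than in either supportive line. Its intensity was 417 for AGM-s3-A9, 777 for AGM-s3-A7 and 413 for OP9, so both supportive lines were low, and nearly equal on this scale (log2 ratio of OP9 to AGM-s3-A9 -0.02, but -0.66 as deposited). AGM-s3-A9 was 1.86-fold (log2 ratio -0.90) and OP9 1.88-fold (-0.91) below AGM-s3-A7, short of 2-fold. These 2 differences share the AGM-s3-A7 array. A second probe set gave 91.0, 139 and 87.3, with AGM-s3-A7 again the highest (-0.61 and -0.67). The sign of both was the same in all 4 scalings tried, but the size for AGM-s3-A9 shrank to -0.18 in the deposited intensities and to -0.48 when arrays were scaled on their spiked hybridization controls.

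Itgb7, a partner of alpha4 and alphaE on lymphocytes, read 38.3 for AGM-s3-A9, 67.9 for AGM-s3-A7 and 58.0 for OP9, close to the level of 49.0. Itgb2, the leukocyte beta subunit, Itgb3, the partner of alphaV and alphaIIb, Itgb4, the partner of alpha6, and Itgb8, another partner of alphaV, stayed below the level in every line. Of these, Itgb4 came nearest at 0.75 times the level, and Itgb2, Itgb3 and Itgb8 reached 0.30, 0.36 and 0.16 times.

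The laminin alpha chains Lama1, Lama4 and Lama5 each passed 2-fold in at least 1 pair of lines, and Itga11 was the other member that did. The alpha chain carries the main integrin-binding region of a laminin and gives the trimer its identity. Lama1, the alpha1 chain of laminin-111 of early embryonic basement membranes, was high in AGM-s3-A9 alone. Its intensity was 176 for AGM-s3-A9, 52.4 for AGM-s3-A7 and 43.0 for OP9, so AGM-s3-A7 was just above the level and OP9 below it. AGM-s3-A9 was 3.35-fold above AGM-s3-A7 (log2 ratio 1.75), and 99.5% of all measured genes had a lower ratio. OP9 was at least 3.58-fold below AGM-s3-A9. As deposited, the 3 intensities were 240.2, 45.1 and 37.4. With the 75th percentile of each array type as the detection level (171 instead of 49.0 on MG-U74A), both differences fell short of 2-fold, at 0.04 between the AGM lines and -0.04 for OP9 to AGM-s3-A9.

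Lama5, the alpha5 chain of laminin-511 and laminin-521, common in vessel and epithelial basement membranes and in bone marrow, had the opposite order in the AGM lines. Its intensity was 75.3 for AGM-s3-A9, 181 for AGM-s3-A7 and 33.3 for OP9, so AGM-s3-A7 was the highest and OP9 was below the level. OP9 was at least 3.69-fold below AGM-s3-A7 (log2 ratio -1.88), and this bound was lost only with the 75th percentile as the level. AGM-s3-A9 was 2.40-fold below AGM-s3-A7 (-1.26), but this difference was under 2-fold in the deposited intensities (-0.57), with scaling on hybridization controls (-0.86) and with the 75th percentile as the level (-0.08). The second Lama5 probe set was below the level in every line.

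Lama4, the alpha4 chain made by mesenchymal and endothelial cells, read 558 for AGM-s3-A9, 335 for AGM-s3-A7 and 230.2 for OP9 on the probe set that represents the gene. OP9 was 2.42-fold below AGM-s3-A9 (log2 ratio -1.28). A second probe set, on MG-U74C, read 324, 387 and 406, with OP9 above AGM-s3-A9 (0.32), and the difference reversed to this value wherever that probe set came to represent the gene. The probe sets for Lama4 thus disagree by 1.60 on the log2 scale, the widest spread among the members, and no direction is given. Lama2, the alpha2 chain of muscle and nerve, was below the level in all lines, reaching 0.89 times, and Lama3, the alpha3 chain of epithelia, reached 0.33 times.

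Itga11, Lama1, Lama4 and Lama5 were the members past 2-fold in any pair of lines. Of these, only Itga11 and Lama5 had an entry in the promoter table used. The 250 bases before their RefSeq start sites (assembly GRCm38.p6) are therefore shown. The Itga11 stretch is chr9:62677605-62677854 on the plus strand and the Lama5 stretch is chr2:180225860-180226109 on the minus strand. Both are written 5′ to 3′ on the gene's strand, with capitals marking GC boxes, the hexamer GGGCGG on either strand (CCGCCC when on the other strand).
Itga11: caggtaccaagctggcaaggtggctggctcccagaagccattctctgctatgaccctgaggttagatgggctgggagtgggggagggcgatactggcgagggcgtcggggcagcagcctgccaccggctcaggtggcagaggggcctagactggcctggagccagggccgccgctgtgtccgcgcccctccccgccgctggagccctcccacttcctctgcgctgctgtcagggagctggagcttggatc
Lama5: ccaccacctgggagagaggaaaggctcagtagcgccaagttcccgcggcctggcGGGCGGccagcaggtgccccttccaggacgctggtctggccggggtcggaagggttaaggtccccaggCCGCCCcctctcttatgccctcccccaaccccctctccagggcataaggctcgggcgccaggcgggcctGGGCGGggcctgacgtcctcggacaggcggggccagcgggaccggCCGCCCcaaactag
The Lama5 stretch holds 4 GC boxes and 19 CpG sites at 72.4% GC, and the Itga11 stretch holds 0 GC boxes and 12 CpG sites at 68.4% GC. Neither contains CCAAT or TATAAA on either strand. Of the 16 measured genes, 12 had an entry in the promoter table, and Itga7, Lama1, Lama4 and Lamc1 had none. Among these 12, 6 hold a GC box, 1 a CCAAT and 0 a TATAAA, against 32.9%, 34.5% and 13.0% of 27025 promoters of the same length. Their GC content ran from 43.6% to 72.4% with a median of 63.2%, and the median over all promoters was 52.0%. A match here is a description of the letters and not a measured binding site.

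Of the beta and gamma chains, Lamb1, Lamb2 and Lamc1 were measured in all 3 lines. Lamb1, the beta1 chain of most embryonic and mesenchymal laminins, read 215 for AGM-s3-A9, 215 for AGM-s3-A7 and 283 for OP9, and a second probe set read 200.4, 210.0 and 217. OP9 was 1.32-fold above both AGM lines (log2 ratio 0.40), though against AGM-s3-A9 the sign changed with the scaling. Lamb3, the beta3 chain of epithelial laminin-332, was at most 0.14 times the level.

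Lamb2, the beta2 chain found at synapses, in glomeruli and in vessel walls, was highest in OP9 on the representing probe set. Its intensity was 392.1 for AGM-s3-A9, 305 for AGM-s3-A7 and 588 for OP9. OP9 was 1.92-fold above AGM-s3-A7 (log2 ratio 0.94), a ratio that exceeded 2-fold in the deposited intensities (1.14) and with scaling on hybridization controls (1.15). The second probe set, on MG-U74A, read 127, 88.4 and 114, with OP9 above AGM-s3-A7 (0.37) and slightly below AGM-s3-A9 (-0.15). AGM-s3-A7 was the lowest line on both probe sets, although the sign between the AGM lines changed with the scaling.

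Lamc1, the gamma1 chain shared by most laminins, was highest in AGM-s3-A9. Its intensity was 358 for AGM-s3-A9, 192 for AGM-s3-A7 and 227 for OP9. AGM-s3-A9 was 1.86-fold above AGM-s3-A7 (log2 ratio 0.90), and 95.8% of all measured genes had a lower ratio. The difference passed 2-fold in the deposited intensities (1.63) and with scaling on hybridization controls (1.34). OP9 was 1.58-fold below AGM-s3-A9 (-0.66). The second Lamc1 probe set was below the level throughout. Lamc3, the gamma3 chain, reached 0.08 times the level at most.

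**Figure D2:**
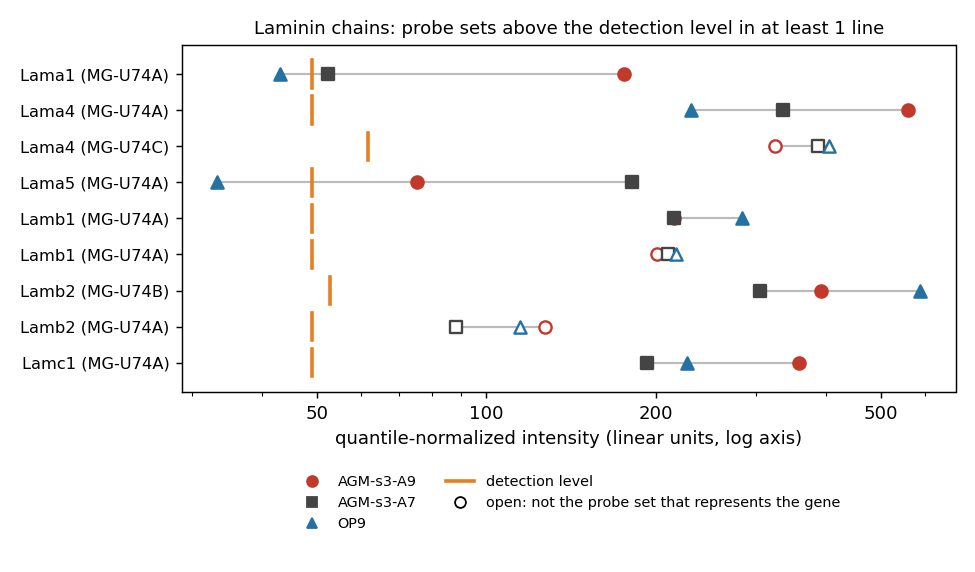
Quantile-normalized intensity (linear units on a log axis) of each laminin probe set above the detection level in at least 1 line, drawn as for the integrins. Lama1 is at 176 in AGM-s3-A9 and near or below the level elsewhere, Lama5 is highest in AGM-s3-A7 at 181, and the filled and open points of Lama4 run in opposite orders.

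Between the AGM lines, which differ in their support of hematopoiesis, 1 of 16 measured members was 2-fold higher in AGM-s3-A9 (Lama1) and 1 was 2-fold lower (Lama5). Over all 8582 genes measured in this pair, 3.05% were higher and 2.24% lower. The 6 laminin chains had a median log2 ratio of 0.55, with 5 above 0, but 0.18 with 4 above 0 when the other measured Lama4 probe set stood for that gene, a setting added after seeing the data. Those above 0 include Lamb1, which was equal in the AGM lines at 0.0005, with its second measured probe set at -0.07. The 10 integrin subunits had a median of -0.22, with 8 below 0. The median over all measured genes was 0.01. Among the 16 members, 9 kept their sign in all 4 scalings; Itga1, Itga3, Itga5, Itga7, Itgav, Itgb1 and Lamb2 did not.

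For OP9 against AGM-s3-A7, 0 of 16 members were 2-fold higher and 2 were lower (Itga11 and Lama5), beside 5.11% and 5.91% of 8724 genes. The members' median was -0.10, with -0.16 for integrin subunits and 0.07 for laminin chains, and the median of all genes was 0.04. For OP9 against AGM-s3-A9, 0 of 15 members were higher and 3 were lower (Itga11, Lama1 and, on its representing probe set, Lama4), beside 4.99% and 6.5% of 8749 genes. Here the median of the laminin chains was -0.64, or -0.15 with the other Lama4 probe set, and that of the integrin subunits 0.14, against 0.02 over all genes. With the representing Lama4 probe set, the laminin medians kept their sign in all 4 scalings, from 0.54 to 1.09 between the AGM lines, 0.07 to 0.24 for OP9 to AGM-s3-A7 and -1.18 to -0.63 for OP9 to AGM-s3-A9. The integrin medians turned sign in the deposited intensities, to 0.01 between the AGM lines and to -0.35 for OP9 to AGM-s3-A9. The value of -0.35 includes Itga8, and with Itga8 the quantile-normalized median was 0.07. The 0.14 given above is over 9 subunits without Itga8. With so few members past 2-fold, these counts describe the genes named and no property of the families. Each pair of comparisons shares the arrays of 1 line, so their values are given side by side only.

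**Figure D3:**
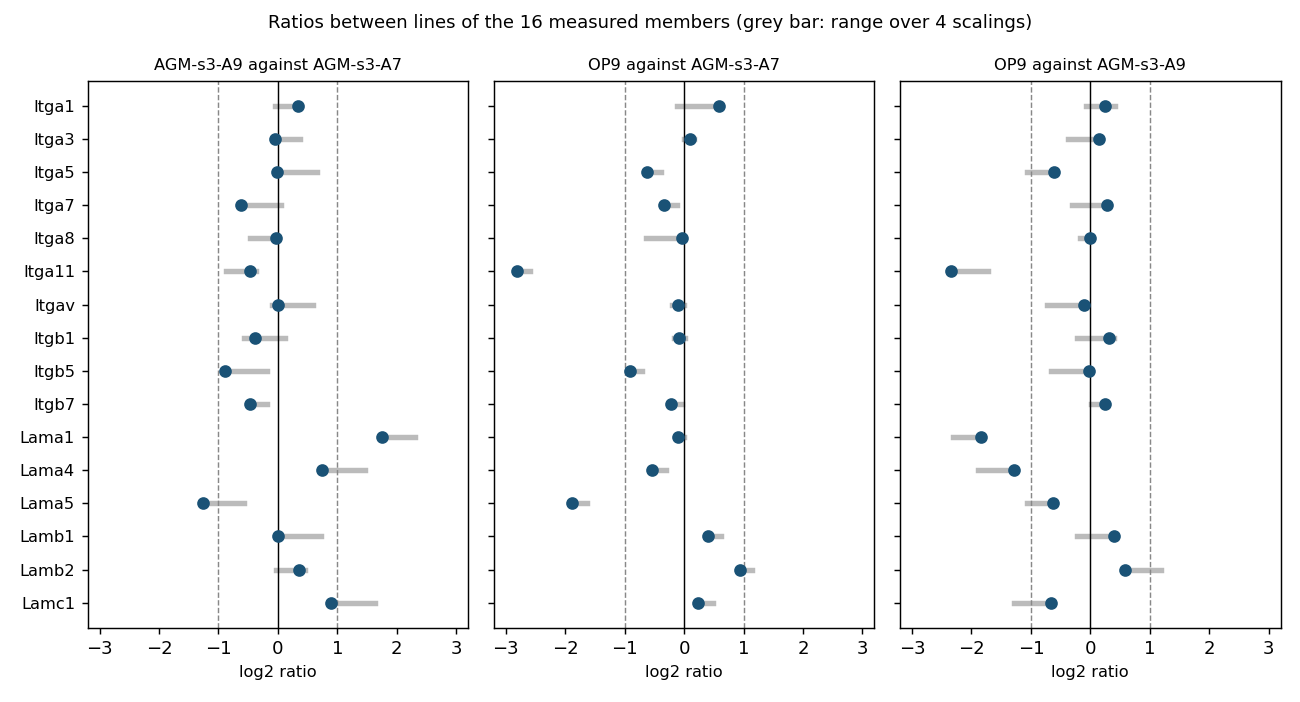
Log2 ratio of each of the 16 measured members in the 3 pairs of lines (points), with a grey bar for its range over 4 scalings of the arrays and dashed lines at 2-fold; values at or below the detection level are set to it, so Itga8, below it in both OP9 and AGM-s3-A9, is drawn at 0 in that pair. Itga11 lies at -2.81 and -2.35 in the OP9 comparisons, and Lama1 at 1.75 and Lama5 at -1.26 between the AGM lines.

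Of 13 measured members with more than 1 probe set, 11 had a probe set that was never above the level. Among the members, 7 had more than 1 measured probe set, which is the only repeat measurement of a member available. For OP9 against AGM-s3-A7 the probe sets of 6 of these 7 genes pointed the same way, and for the other pairs those of 2 of 7 did (Itgb5 and Lamb2 between the AGM lines, Itgb5 and Lamb1 for OP9 against AGM-s3-A9). The median spread between probe sets of a gene was 0.48, 0.32 and 0.70 on the log2 scale for the AGM pair, OP9 to AGM-s3-A7 and OP9 to AGM-s3-A9. The widest was 1.60, for Lama4. In addition, 7 of the 16 representing probe sets carry a name suffix that marks possible cross-hybridisation: those of Itga1, Itga7, Itgav, Itgb1, Lamb1, Lamb2 and Lamc1. Those of Itga11, Itgb5, Lama1, Lama4 and Lama5 do not.

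Genes that act with these receptors and chains were taken from 4 lists. Of the other integrin ligands, 24 of 27 were on the arrays. Between the AGM lines, 3 of 18 measured ligands were 2-fold higher in AGM-s3-A9 and 2 lower, with a median log2 ratio of 0.24, beside 3.05% and 2.24% of all genes. Col4a1 and Col4a2, the chains of the main type IV collagen and neighbours of laminin in the basement membrane, were among the higher ones. Col4a1 read 1779.8 for AGM-s3-A9, 385 for AGM-s3-A7 and 1010.4 for OP9, so that AGM-s3-A9 was 4.62-fold above AGM-s3-A7. Col4a2 read 1448, 385 and 1400.2, so both supportive lines were high and AGM-s3-A7 low (3.76-fold and 3.64-fold). Postn, a matricellular ligand of alphaV integrins, ran the other way, at 582, 1852 and 1772, so that AGM-s3-A9 was 3.19-fold below AGM-s3-A7.

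In OP9, 4 of 19 measured ligands were higher and 2 lower than in AGM-s3-A7, and 3 higher and 3 lower than in AGM-s3-A9, with medians of -0.23 and -0.53. Over all genes the shares were 5.11% higher and 5.91% lower than AGM-s3-A7, and 4.99% and 6.5% to AGM-s3-A9. Tgfbi, a matrix ligand of alphaV and alpha3 integrins, read 552 for AGM-s3-A9, 466 for AGM-s3-A7 and 3.93 for OP9, which was at least 9.51-fold below AGM-s3-A7. Col3a1, a fibrillar collagen, read 3597, 3281 and 550 so that OP9 was 5.97-fold below AGM-s3-A7. Itga11, a receptor for fibrillar collagens, was low in the same line. Icam1, a counter-receptor for leukocyte beta2 integrins, was at 76.2, 9.74 and 257, highest in OP9 and at least 5.24-fold above AGM-s3-A7.

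Of 17 basement membrane partners, 12 were measured. In AGM-s3-A9, 3 were 2-fold higher than in AGM-s3-A7 (Col15a1, Col4a1 and Col4a2) and 0 lower, beside 3.05% and 2.24% of all genes, and the median log2 ratio was 0.22. Col15a1, a collagen of basement membrane zones, read 207 for AGM-s3-A9, 10.01 for AGM-s3-A7 and 101 for OP9. In OP9, the same 3 genes were higher than in AGM-s3-A7 and Nid1, Nid2 and Sparc were lower, beside 5.11% and 5.91% of all genes. The nidogens link laminin to type IV collagen: Nid1 read 321, 312 and 83.6, and Nid2 1254, 959 and 268, so OP9 was low for both. Relative to AGM-s3-A7, OP9 was 3.73-fold lower for Nid1 and 3.58-fold lower for Nid2. Against AGM-s3-A9, 5 of the 12 were lower in OP9 and 0 higher, beside 6.5% and 4.99% of all genes, with a median of -0.76.

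Cytoplasmic adaptors and kinases of integrin adhesions, such as talins, kindlins and parvins, were measured for 23 of 28 genes on the arrays. Between the AGM lines 2 were higher in AGM-s3-A9 (Parvb and Ptk2b) and 0 lower, beside 3.05% and 2.24% of all genes, with a median of -0.14. Parvb, beta-parvin, which binds integrin-linked kinase, read 368 for AGM-s3-A9, 69.1 for AGM-s3-A7 and 35.7 for OP9, a 5.32-fold difference between the AGM lines. Ptk2b, the kinase PYK2 related to focal adhesion kinase, read 120.3, 50.3 and 153. It was lowest in AGM-s3-A7, where it lay just above the level of 49.0 and so close to background. Against AGM-s3-A7, OP9 had 2 higher (Ptk2b and Tln2) and 3 lower (Fyn, Lims2 and Rsu1), beside 5.11% and 5.91% of all genes, with a median of -0.39. For Tln2, only 1 of 2 measured probe sets was past 2-fold higher. Lims2, a LIM-domain partner of integrin-linked kinase, read 197, 196 and 59.7. Against AGM-s3-A9, 5 of 23 were lower in OP9 and 0 higher, beside 6.5% and 4.99% of all genes.

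Of the membrane proteins that associate with integrins, all 13 were on the arrays and 10 were measured. Cav1, the coat protein of caveolae, was the 1 gene past 2-fold between the AGM lines, where 2.24% of all genes were lower. It read 118 for AGM-s3-A9, 503 for AGM-s3-A7 and 87.8 for OP9, so AGM-s3-A7 was high. Relative to AGM-s3-A7, it was lower by 4.26-fold in AGM-s3-A9 and by 5.73-fold in OP9. Cd82, a tetraspanin, read 359, 193 and 90.3 and was 3.97-fold lower in OP9 than in AGM-s3-A9. Of 2 measured Cd82 probe sets, only 1 was past 2-fold lower in each OP9 comparison. In OP9, 2 of the 10 were lower relative to AGM-s3-A7 (Cav1 and Cd82) and 1 relative to AGM-s3-A9 (Cd82), beside 5.91% and 6.5% of all genes. The differences past 2-fold, at most the 3 largest of each list and pair, came to 28. All 28 kept their sign and 27 stayed past 2-fold in all 4 scalings. Among these 28, Cd82 in OP9 against AGM-s3-A7 was the exception. They were picked by their size under 1 of the scalings, which favours such stability. Fyn, Rsu1, Sparc, Col4a1 and Col15a1 in OP9 against AGM-s3-A7 were not among them and were not checked in this way.

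**Figure D4:**
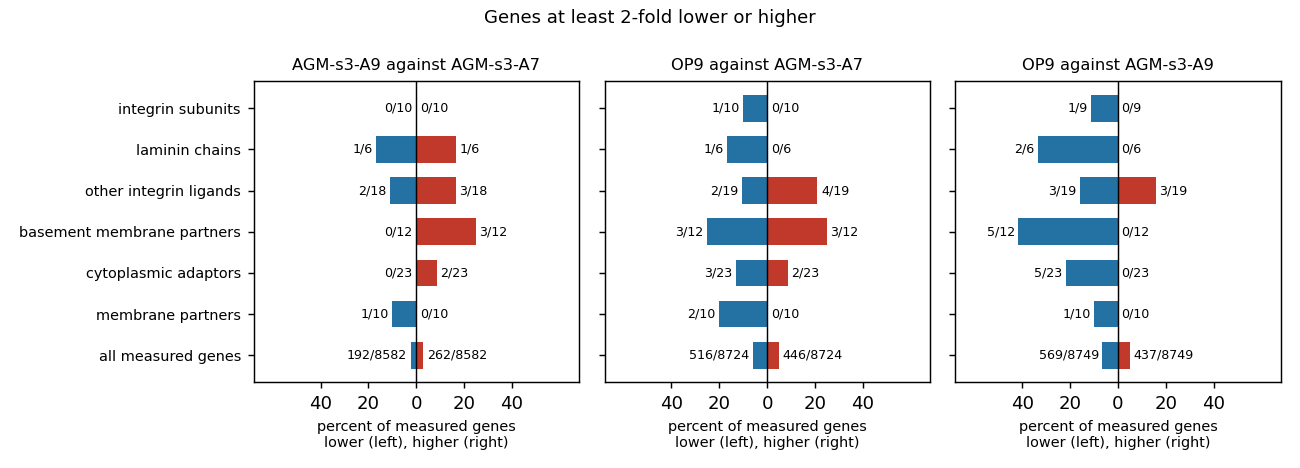
Percent of measured genes that were at least 2-fold lower (bars to the left) or higher (bars to the right) in each pair of lines, for the integrin subunits, the laminin chains, 4 partner lists and all measured genes, with counts at the bars. Basement membrane partners have 3 of 12 higher and 0 lower between the AGM lines, and 5 of 12 lower and 0 higher for OP9 to AGM-s3-A9.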

How the data were processed

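The authors deposited 1 linear intensity per probe set for each of 9 arrays. RNeasy columns were used for the extraction of total RNA, per the labels' protocols, and 6 ug was made into biotinylated cRNA. How the chips were scanned, summarised and scaled is not given in the sources used here. Each of the 9 columns was mapped to a sample and 0 were not.

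Trimmed means (2% at each end) of the 3 arrays of a type differed by up to 61.1%, so log2 intensities were quantile-normalized within each array type. This removes any general shift between lines. Values at or below the detection level, the higher of the median and the 95th percentile of 34 control probe sets, were set to it before log2 ratios were formed. A gene was represented by the probe set with the highest mean log2 of value over level. Genes were named from the platform annotation. Every member is named, and from each partner list the 3 genes with the largest difference past 2-fold in each pair. Members and lists were chosen with earlier results of these data known. The code was tested on simulated data, with Python 3.11.15, numpy 2.4.6 and pandas 2.3.3. The 9 alternatives changed the scaling, detection level, choice of probe set and use of suffixed probe sets. Protein sequences were not used here.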

Additional observations from a re-analysis of the deposited data

How the results depend on the processing

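With 1 array per line and type, no result has a test, and the alternatives show only how the values move. No paired analysis was possible because each line has 1 array per array type. Of the single-gene values under alternatives, 324 moved by less than the spread between probe sets, 70 moved by more, and 3 that were past 2-fold reversed. The 3 are Lama4 in OP9 against AGM-s3-A9, at 0.32 with the median, with the 75th percentile and with no detection level. Itga11 stayed past 2-fold in both OP9 comparisons under each of the 9 alternatives.

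The median of all genes shifted by over 0.1 under 2 scalings. As deposited it was 0.25 between the AGM lines (AGM-s3-A9 over AGM-s3-A7) and -0.20 for OP9 against AGM-s3-A9, with 12.7% of genes higher and 3.18% lower in the first pair and 7.53% and 13.4% in the second. With hybridization control scaling it was 0.24 for AGM-s3-A9 and 0.21 for OP9 against AGM-s3-A7, with 7.11% higher and 1.26% lower in the first pair and 7.98% and 4.50% in the second. With no detection level 8.25% to 12.0% of all genes passed 2-fold in a direction.

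In AGM-s3-A9 against AGM-s3-A7, as deposited, 3 members were higher (Lama1, Lama4 and Lamc1), 0 lower and the median was 0.11. With hybridization control scaling the values were 3, 0 and 0.13. Both counts were 0 with the 75th percentile as the level, beside 2.44% of all genes higher and 2.07% lower. With no level they were 2 and 2, beside 8.73% and 8.25%. In OP9 against AGM-s3-A7, 1 member (Lamb2) was higher both as deposited and with control scaling, and 4 with no level. Over all genes 6.21%, 7.98% and 11.1% were higher in these settings. With the median as the level 4 were lower (Itga11, Itga2b, Itga8 and Lama5), and with no level 7. The shares of all genes that were lower were 7.44% and 11.8%. With the 75th percentile 2 were lower, Itga11 and Itga8, beside 5.81% of all genes. The members' median log2 ratio was -0.21 as deposited, -0.19 with trimmed mean scaling and with the median over probe sets, and -0.23 without suffixed probe sets. In OP9 against AGM-s3-A9, as deposited, 1 member was higher (Lamb2), 6 were lower (Itga11, Itga5, Lama1, Lama4, Lama5 and Lamc1) and the median was -0.38. The median was -0.13 with control scaling and -0.45 without suffixed probe sets. With the 75th percentile as the level 1 member was lower, and with no level 2 were higher and 8 lower. Over all genes 5.98% were lower with the 75th percentile, and 11.1% were higher and 12.0% lower with no level. With no level, values below background enter, so the member counts then include genes such as Itga6 and Itgb2 that were not measured in any line.

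Leaving out 1 array type was chosen after seeing the data. Without MG-U74A, 0 members were higher and 0 lower between the AGM lines, and 1 (Itga11) was lower in OP9 in each comparison. Without MG-U74B, 1 (Lama5) was lower in OP9 relative to AGM-s3-A7. Shares over all genes are not given for these settings, so the counts only list the genes named. Genes close to the detection level, such as Itga3, Itga5, Itga8 and Itgb7, are limited by signal over background.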
